A study of Mus musculus with 61 samples.

Results

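The guanylate-binding protein genes were followed in liver RNA-seq of the 8 founder strains of the Diversity Outbred mouse population. The 7 genes Gbp2, Gbp3, Gbp6, Gbp7, Gbp8, Gbp9 and Gbp10 were taken by their symbols in the deposited table, out of 18754 genes in all. The symbol Gbp6 stands on 2 rows of that table, so the 7 genes are 8 rows: one is Gbp6 itself (ENSMUSG00000104713), and the other (ENSMUSG00000079362) is named Gm43302 in GENCODE release M21 and is called Gm43302 here. All 8 rows passed the filter on low counts, which left 16165 genes for testing. The strains, as the titles name them, were strain-129 (8 libraries; its label is that number alone), AJ (6), NOD (8), NZO (8), WSB (8), PWK (8), Cast (7) and B6 (7), the last used as the reference. WSB, PWK and Cast are wild-derived inbred strains, and the others are laboratory strains, among them NZO and NOD, known as models of obesity with diabetes and of autoimmune diabetes. Every mouse, B6 included, had been sensitised on a high-fat, high-sugar diet of 45% fat, so no group shows the level on another diet. The labels give neither age nor sex and do not say whether each library is a mouse of its own, so the p-values measure the spread between libraries of a strain. Bulk liver RNA mixes hepatocytes with Kupffer cells, lymphocytes and endothelium, and here fewer cells of a type and less RNA per cell cannot be told apart.

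Guanylate-binding proteins are large GTPases that interferon-gamma induces strongly in macrophages, hepatocytes and many other cells. They bind GTP, assemble on the membranes of vacuoles that hold parasites or bacteria and on bacterial surfaces, break them open and help to start the caspase-driven inflammasome response. In the mouse the genes lie in a cluster on chromosome 3 and another on chromosome 5.

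The 3 members on chromosome 3 of GRCm38 are on the plus strand and do not share exons. Gbp7 spans chr3:142530342-142550149, Gbp3 spans chr3:142560026-142573209 and Gbp2 spans chr3:142620602-142638008. The 5 rows on chromosome 5 are on the minus strand: Gbp8 at chr5:105014150-105139540, Gbp9 at chr5:105077630-105139539, Gbp10 at chr5:105215699-105239533, Gbp6 at chr5:105270702-105293698, and Gm43302 at chr5:105214907-105293695, across both of the last 2 genes. Gbp8 and Gbp9 share a first exon of 60 bases, which also overlaps Gbp4.

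**Figure D1:**
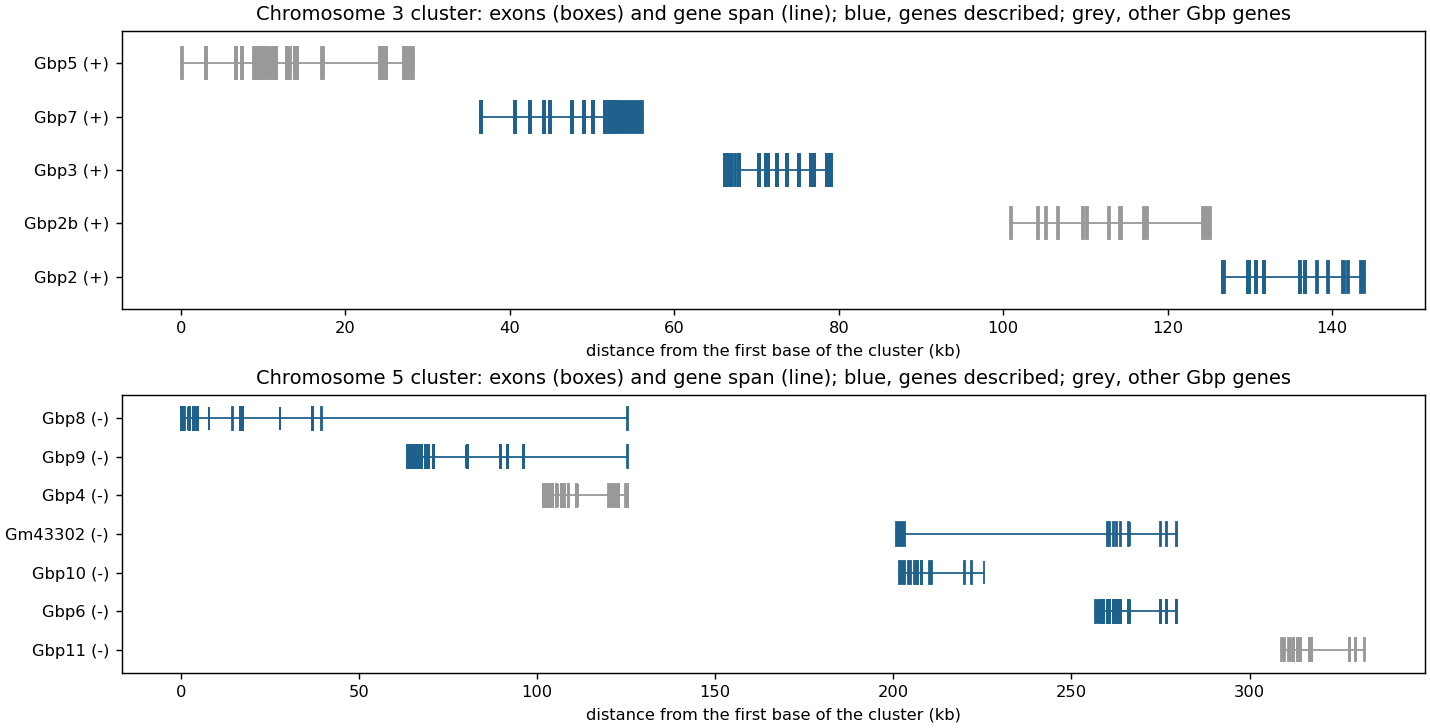
Exons (boxes) and spans (lines) of the Gbp genes of both clusters, against distance from the first base of each cluster in kb, with the strand after each name; blue genes are described and grey ones are other Gbp genes. Gm43302 begins with exons of Gbp6 and ends in the last exon of Gbp10.

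Gm43302 is a joined model: 9 of its 10 coding exons lie at the coordinates of Gbp6 and 1, the last, at those of Gbp10. Gbp6 and Gbp10 are themselves near-identical, with 30 mismatches over 1833 coding bases, or 98.36% identity. Of those 30 mismatches 14 lie in coding exon 9. The coding sequence of Gm43302 differs from that of Gbp6 at 2 bases and from that of Gbp10 at 28. The sequences below are coding bases 1591 to 1770 of the GENCODE transcripts of the 3 rows on chromosome 5, with 60 bases before the last junction and the rest after it, and are shown because the assignment of reads between the rows rests on such positions. Capitals mark the 11 bases at which Gbp6 and Gbp10 differ.
Gbp6: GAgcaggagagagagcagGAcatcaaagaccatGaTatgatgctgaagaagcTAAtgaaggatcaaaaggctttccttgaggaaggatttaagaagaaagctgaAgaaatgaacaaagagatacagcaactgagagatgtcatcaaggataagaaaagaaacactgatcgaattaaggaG
Gm43302: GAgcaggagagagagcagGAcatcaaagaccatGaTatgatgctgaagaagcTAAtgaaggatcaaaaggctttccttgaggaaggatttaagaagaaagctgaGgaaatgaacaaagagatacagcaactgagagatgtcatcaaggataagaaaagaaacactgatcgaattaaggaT
Gbp10: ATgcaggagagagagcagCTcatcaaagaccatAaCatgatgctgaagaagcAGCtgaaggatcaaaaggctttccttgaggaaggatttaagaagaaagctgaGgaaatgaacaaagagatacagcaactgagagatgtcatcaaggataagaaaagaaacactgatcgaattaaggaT

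Of all 60-base stretches of each row's transcripts, 0.235% of those of Gm43302, 18.7% of those of Gbp10 and 30.7% of those of Gbp6 occur in no other Gbp gene of the 2 clusters. The shares were 87.3% for Gbp8, 94.4% for Gbp9, 97.0% for Gbp3, 98.2% for Gbp7 and 98.4% for Gbp2. The split of reads between Gbp6, Gm43302 and Gbp10 is therefore uncertain as a count of molecules of each gene, and their sum is given beside them.

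Promoters are shown for the chromosome 3 members, because only these 3 of the 7 symbols have an entry in the RefSeq promoter table (GRCm38.p6). The letters of 2 patterns were searched on both strands in the 250 bases before each start: GAAANNGAAA, the core of the interferon-stimulated response element (ISRE), and TTCNNNGAA, the gamma-activated site (GAS). The ISRE letters occur in 2.98% and the GAS letters in 7.02% of all 32851 windows of that length in the table. The last 120 bases before the start follow, on the plus strand, with the matches in capitals. Gbp2 is at chr3:142620543-142620662, Gbp3 at chr3:142559924-142560043 for the first of its 2 listed starts and Gbp7 at chr3:142530216-142530335.
Gbp2: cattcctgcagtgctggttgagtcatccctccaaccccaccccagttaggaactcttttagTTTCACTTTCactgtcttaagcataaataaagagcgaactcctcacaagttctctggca
Gbp3: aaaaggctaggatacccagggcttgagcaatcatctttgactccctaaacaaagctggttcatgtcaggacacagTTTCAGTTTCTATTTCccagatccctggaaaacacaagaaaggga
Gbp7: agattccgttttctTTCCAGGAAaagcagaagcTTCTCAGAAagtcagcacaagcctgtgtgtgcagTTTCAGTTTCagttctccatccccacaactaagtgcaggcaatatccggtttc

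The promoters printed each hold the reverse complement of the ISRE letters within 59 bases of the RefSeq start: at 59 to 50 bases before it in Gbp2, at 53 to 44 in Gbp7, and in Gbp3 as a pair at 45 to 36 and 39 to 30 that overlap. The RefSeq starts differ from the beginnings of the gene spans given above. The printed bases of Gbp2 and Gbp3 run past those beginnings, and the ISRE match of Gbp2 lies inside its span. The second listed start of Gbp3 has neither pattern in the 120 bases before it. Gbp7 also holds 2 matches to the GAS letters, at 106 to 98 and 87 to 79 bases before its start. These are the reference genome's letters and say nothing of the alleles of the other strains.

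Libraries held 20 to 69.2 M reads assigned to genes, with a median of 30.4 M. The 18S ribosomal RNA row took 0.837% to 16% of them, most in NZO. Xist, the noncoding RNA that coats a silenced X, fell into separate levels, 646 to 1420 CPM (counts per M reads of the library) in 31 libraries and 0.193 to 8.90 CPM in 29, and each strain had libraries of both kinds. Summed hepatocyte markers were at 37900 CPM or more in every library. NZO 8 stood apart: its 4 tested neutrophil markers summed to 1710 CPM, against 1.11 to 6.19 CPM in the other NZO libraries, and its 8 B cell markers to 140 CPM, against 5.50 to 13.1 CPM. Leaving it out changed no call of a member against B6 in NZO.

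All 8 rows differed among the 8 strains in edgeR's quasi-likelihood F test with Benjamini-Hochberg adjustment over all 16165 genes, with adjusted p between 1.66e-20 for Gbp10 and 3.7e-07 for Gbp9. That is a weak distinction in these livers, since 89.8% of all tested genes were called in the same test. Over the 28 pairs of strains, 137 of the 224 differences of the 8 rows were called, which is 61.2%, against 37.5% of all gene-by-pair differences. The strain ranges did not overlap at all in 53 of the 224, of which Gm43302 and Gbp10 held 14 each. How often the ranges of other genes did not overlap was not counted, so this count only describes the members. Gm43302 was called in 23 pairs and Gbp10 in 22, Gbp3 in 18, Gbp6 in 17, Gbp8 in 16, Gbp7 in 15, Gbp9 in 14 and Gbp2 in 12. Strain accounted for 91.3% of the variance of log2 CPM of Gbp10, 86.0% for Gm43302 and 74.7% for Gbp3, down to 54.0% for Gbp9, against a median of 49.3% over all tested genes.

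**Figure D2:**
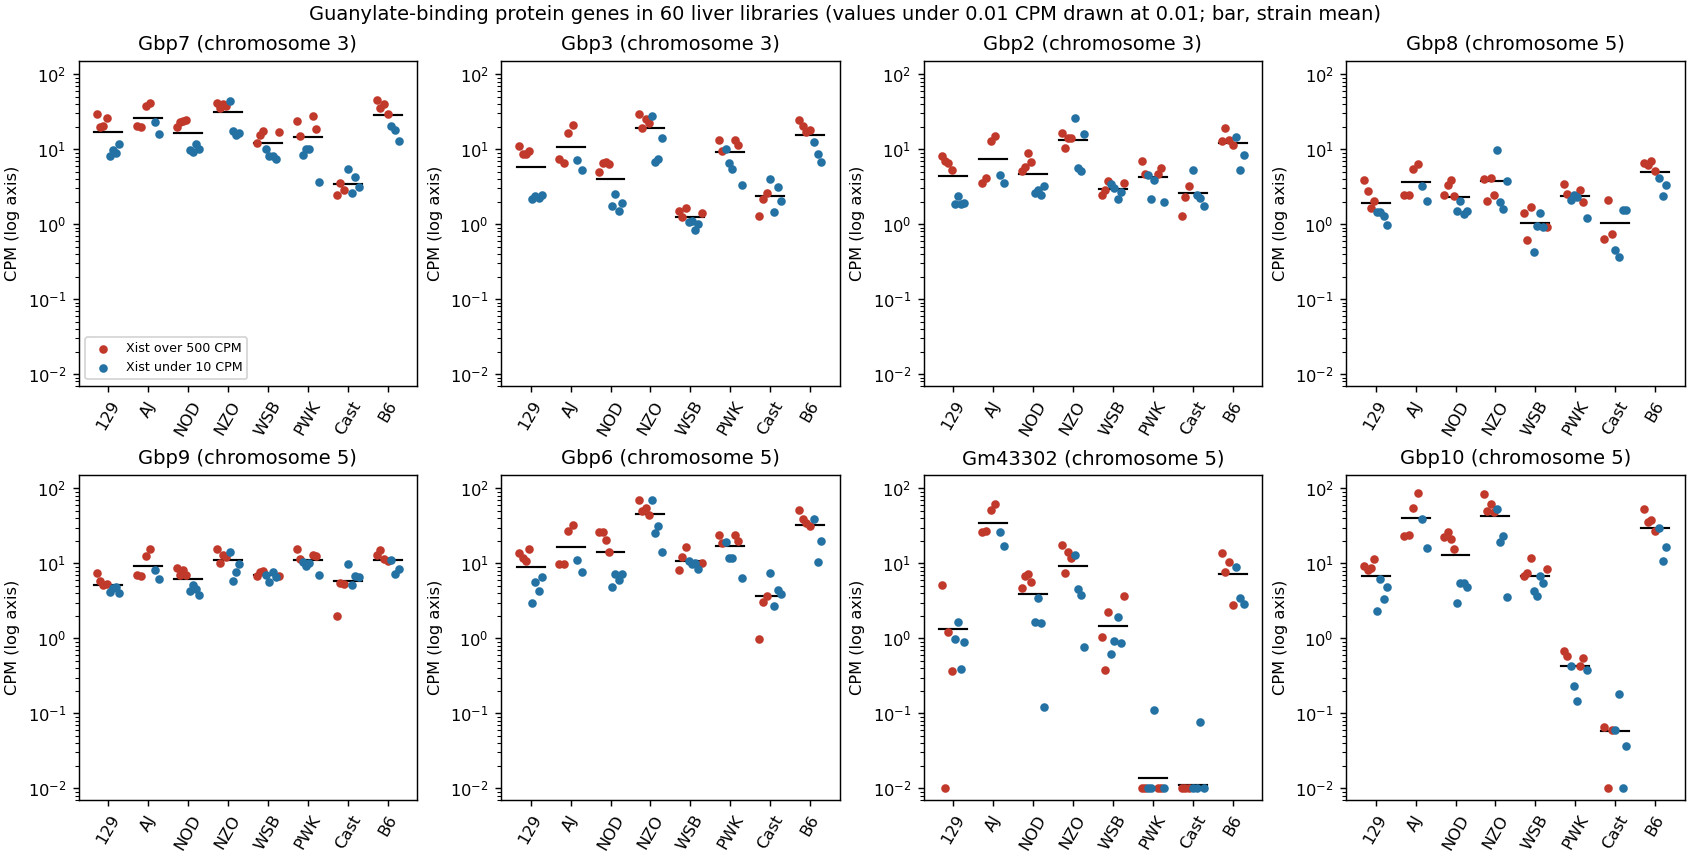
CPM of the 8 rows on a log axis in each of the 60 libraries, by strain, with red points for libraries with Xist over 500 CPM, blue points for those under 10 CPM and a bar at the strain mean. Gbp10 and Gm43302 lie near 0 in PWK and Cast, and Gm43302 is high in AJ. Red points lie above blue ones without overlap in 2 to 5 of the 8 strains, depending on the row. The same count was not made for other genes.

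On chromosome 3, Gbp7, linked in mouse macrophages to the phagocyte oxidase, was lower in WSB, PWK and Cast than in B6. Its level averaged 31.1 ± 12.3 CPM in NZO (SD, n = 8), 26.4 ± 10.6 in AJ (n = 6), 16.8 ± 8.30 in strain-129, 16.4 ± 6.80 in NOD, 14.6 ± 8.20 in PWK and 12 ± 4.20 in WSB (n = 8 each), and 3.48 ± 1.08 in Cast, against 29.0 ± 12.2 CPM in B6 (n = 7 each). The Cast libraries ran from 2.43 to 5.45 CPM with a median of 3.13, against 13 to 46.0 CPM with a median of 29.8 in B6. No Cast library reached the lowest library of WSB, its nearest strain in the order of means, and that step was called (edgeR adjusted p = 2.38e-05). It was the only step between neighbouring means of Gbp7 that was called. The log2 fold change over B6 was -3.05 ± 0.37 (SE) in Cast (adjusted p = 4.63e-10), -1.27 ± 0.33 in WSB and -0.99 ± 0.32 in PWK. In strain-129 and NOD it was -0.79 ± 0.32 and -0.82 ± 0.32, with adjusted p of 0.0721 and 0.0569, and both passed the threshold with Xist in the model (adjusted p = 0.0119 and 0.0095).

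Gbp3, which in mouse cells is loaded onto parasite vacuoles with other family members, had its lowest level in WSB. It averaged 19.0 ± 8.72 CPM in NZO, 10.7 ± 6.51 in AJ, 9.07 ± 3.63 in PWK, 5.86 ± 3.85 in strain-129, 4.05 ± 2.36 in NOD, 2.40 ± 0.958 in Cast and 1.23 ± 0.270 in WSB, against 15.4 ± 6.39 CPM in B6 (SD, n = 6 to 8). The WSB libraries ran from 0.838 to 1.65 CPM with a median of 1.19, against 6.80 to 24.5 CPM with a median of 17.2 in B6. Every WSB library was thus below every B6 library, and the same held for NOD (1.49 to 6.77 CPM) and Cast (1.30 to 4.01 CPM). The log2 fold change over B6 was -3.63 ± 0.42 in WSB (adjusted p = 2.52e-10), -2.68 ± 0.41 in Cast, -1.91 ± 0.38 in NOD and -1.40 ± 0.37 in strain-129. In PWK it was -0.76 ± 0.37 with an adjusted p of 0.0894, which became 0.0326 with Xist in the model. No step between neighbouring means was called, the nearest being Cast over WSB (adjusted p = 0.0512).

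Gbp2, which in mice restricts Toxoplasma gondii and helps to activate caspase-11, was lower than in B6 in 5 of the 7 strains. Mean levels were 13.5 ± 6.69 CPM in NZO, 7.32 ± 5.24 in AJ, 4.68 ± 2.31 in NOD, 4.39 ± 2.68 in strain-129, 4.32 ± 1.67 in PWK, 2.99 ± 0.553 in WSB and 2.64 ± 1.29 in Cast, against 12.2 ± 4.43 CPM in B6 (SD, n = 6 to 8). WSB (2.18 to 3.73 CPM) and Cast (1.30 to 5.24 CPM) did not overlap with B6 (5.30 to 19.1 CPM). The log2 fold change over B6 was -2.20 ± 0.38 in Cast (adjusted p = 2.79e-06), -2.02 ± 0.36 in WSB, -1.49 ± 0.36 in PWK, -1.47 ± 0.36 in strain-129 and -1.37 ± 0.36 in NOD. It was -0.73 ± 0.38 in AJ (adjusted p = 0.185) and 0.15 ± 0.35 in NZO (adjusted p = 0.814). None of the 7 steps between neighbouring means was called.

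On chromosome 5, Gbp8 and Gbp9, whose own functions are less studied, stood at lower levels per length in B6 than the chromosome 3 members. Gbp8 averaged 3.73 ± 2.65 CPM in NZO, 3.67 ± 1.79 in AJ, 2.36 ± 0.638 in PWK, 2.30 ± 0.912 in NOD, 1.94 ± 0.947 in strain-129, 1.05 ± 0.666 in Cast and 1.04 ± 0.430 in WSB, against 4.96 ± 1.75 CPM in B6, and was the only row with its highest mean in B6. Gbp8 was lower than in B6 in strain-129, NOD, WSB, PWK and Cast, with log2 fold changes of -1.36 ± 0.34, -1.10 ± 0.34, -2.24 ± 0.35, -1.07 ± 0.34 and -2.25 ± 0.37. All WSB and Cast libraries were below the lowest B6 library, at 2.39 CPM. Library NZO 5 held 9.79 CPM of Gbp8, against 1.59 to 4.15 CPM in the other 7 NZO libraries, whose mean was 2.87 ± 1.11 CPM.

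Gbp9 covered the narrowest range of the 8 rows, 2.15-fold between the highest and the lowest strain mean. Means were 11.1 ± 2.55 CPM in PWK, 11 ± 3.34 in NZO, 9.29 ± 3.77 in AJ, 7.02 ± 0.709 in WSB, 6.10 ± 1.91 in NOD, 5.84 ± 2.32 in Cast and 5.16 ± 1.07 in strain-129, against 11 ± 2.64 CPM in B6. Gbp9 was lower in strain-129 (-1.09 ± 0.22, adjusted p = 9.29e-05), Cast (-0.91 ± 0.22), NOD (-0.84 ± 0.21) and WSB (-0.64 ± 0.21, adjusted p = 0.0118). No pair of strains was free of overlap for Gbp9, and no step between neighbouring means was called. PWK, in which Gbp9 differed from B6 by 0.02 ± 0.21 (edgeR adjusted p = 0.956), was also a strain with Gbp10 near 0.

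Gbp10, as its reads were assigned, separated PWK and Cast from every other strain. It was at 0.146 to 0.678 CPM in PWK (median 0.427, 4 to 22 reads per library) and at 0 to 0.181 CPM in Cast (median 0.0596, 14 reads in all 7 libraries together, with 2 libraries at 0), against 10.8 to 53.1 CPM in B6 (median 30.0). The highest PWK library was thus below the lowest library of any strain but Cast. Means elsewhere were 42.9 ± 25.8 CPM in NZO, 40.5 ± 26.5 in AJ, 13 ± 9.42 in NOD, 6.82 ± 2.54 in WSB and 6.80 ± 3.18 in strain-129, against 30.0 ± 14 CPM in B6. Log2 fold changes over B6 were -6.11 ± 0.54 in PWK (adjusted p = 2.88e-14), -8.81 ± 0.71 in Cast (adjusted p = 1.11e-15), -2.14 ± 0.42 in strain-129, -2.13 ± 0.42 in WSB and -1.20 ± 0.41 in NOD (adjusted p = 0.0272). The call in NOD was lost when any of 5 single libraries was left out (NOD 5, 6, 7 or 8, or B6 1), with adjusted p up to 0.0812. In AJ and NZO the log2 fold changes were 0.43 ± 0.44 and 0.52 ± 0.41 and neither was called. Steps down the order of means were called between NOD and B6, between PWK and strain-129 (edgeR adjusted p = 3.8e-09) and between Cast and PWK (adjusted p = 0.00837). Only 18.7% of the 60-base stretches of Gbp10 occur in no other Gbp gene. Of the reads of the overlapping rows, Gbp6 took 94.6% to 98.2% in PWK and 92.3% to 100% in Cast. Whether Gbp10 reads of these strains went to Gbp6, or were lost in counting on GRCm38, was not tested.

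Gm43302, like Gbp10, was near 0 in PWK and Cast, and it was higher in AJ than in B6, which Gbp10 was not called to be. Over the 8 strain means the r of these 2 rows was 0.95. AJ libraries held 17.1 to 61.5 CPM (median 26.4), against 2.79 to 13.7 CPM in B6 (median 7.78), with no overlap. The AJ mean of 34.8 ± 17.5 CPM stood beside 9.14 ± 5.91 in NZO, 3.92 ± 2.62 in NOD, 1.47 ± 1.11 in WSB and 1.34 ± 1.65 in strain-129, against 7.16 ± 4.25 CPM in B6. Over B6, the log2 fold change was 2.28 ± 0.56 in AJ (adjusted p = 0.00209), -2.42 ± 0.55 in strain-129 and -2.26 ± 0.55 in WSB, while -0.86 ± 0.52 in NOD was not called. In PWK 3 reads fell on Gm43302, all in 1 library, and in Cast 2 reads, also in 1 library, against 1573 reads in the 7 B6 libraries. The ratios of depth-scaled totals over B6 were 0.00169 in PWK, with an exact Poisson 95% interval of 0.000349 to 0.00495, and 0.00124 in Cast, with an interval of 0.00015 to 0.00449, both for counting error only. Gm43302 is also the row with the fewest stretches of its own, so its level depends on how the reads shared with Gbp6 and Gbp10 were assigned.

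Gbp6, unlike those rows, was well expressed in PWK. Its mean was 45.1 ± 20.3 CPM in NZO, 16.9 ± 6.30 in PWK, 16.3 ± 10.7 in AJ, 14 ± 9.10 in NOD, 10.8 ± 2.72 in WSB, 8.93 ± 4.71 in strain-129 and 3.71 ± 1.94 in Cast, against 32.1 ± 13.4 CPM in B6. The PWK libraries ran from 6.35 to 24 CPM and the Cast libraries from 0.965 to 7.33 CPM, against 10.3 to 50.9 CPM in B6, so that Cast did not overlap with B6 and PWK did. Log2 fold changes over B6 were -3.11 ± 0.43 in Cast (adjusted p = 1.45e-08), -1.85 ± 0.38 in strain-129, -1.57 ± 0.38 in WSB, -1.19 ± 0.38 in NOD and -0.92 ± 0.38 in PWK (adjusted p = 0.0414). The call in PWK was lost when any of 10 single libraries of PWK or B6 was left out (PWK 2, 3, 4, 5 or 9, or B6 1, 2, 3, 4 or 6), with adjusted p up to 0.11. In AJ the value of -0.98 ± 0.41 was not called (adjusted p = 0.0896), but it was with Xist in the model (adjusted p = 0.0266) or without AJ 4 or B6 7.

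The reads of the 3 overlapping rows were split differently in the strains. Gm43302 took 34.1% to 44.5% of them in AJ, against 4.61% to 14% in B6, while Gbp6 took 14.6% to 20.4% in AJ, against 41.8% to 51.4% in B6. Gbp10 took 39.1% to 51.1% in AJ and 38.6% to 45.4% in B6. In PWK and Cast the share of Gbp6 was 94.6% to 98.2% and 92.3% to 100%. Summed, the 3 rows were at 91.5 ± 54.0 CPM in AJ, 97.1 ± 51.1 in NZO, 31.0 ± 20.7 in NOD, 19.1 ± 5.47 in WSB, 17.4 ± 6.41 in PWK, 17.1 ± 8.40 in strain-129 and 3.78 ± 1.94 in Cast, against 69.2 ± 30.9 CPM in B6. With the 3 rows tested as 1, the log2 fold change over B6 was 0.40 in AJ (edgeR adjusted p = 0.555), so the call of Gm43302 in AJ had no counterpart in the sum. It was -2 in PWK (adjusted p = 4.36e-05) and -4.20 in Cast (adjusted p = 3.99e-11), where the sum was lower as well.

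**Figure D3:**
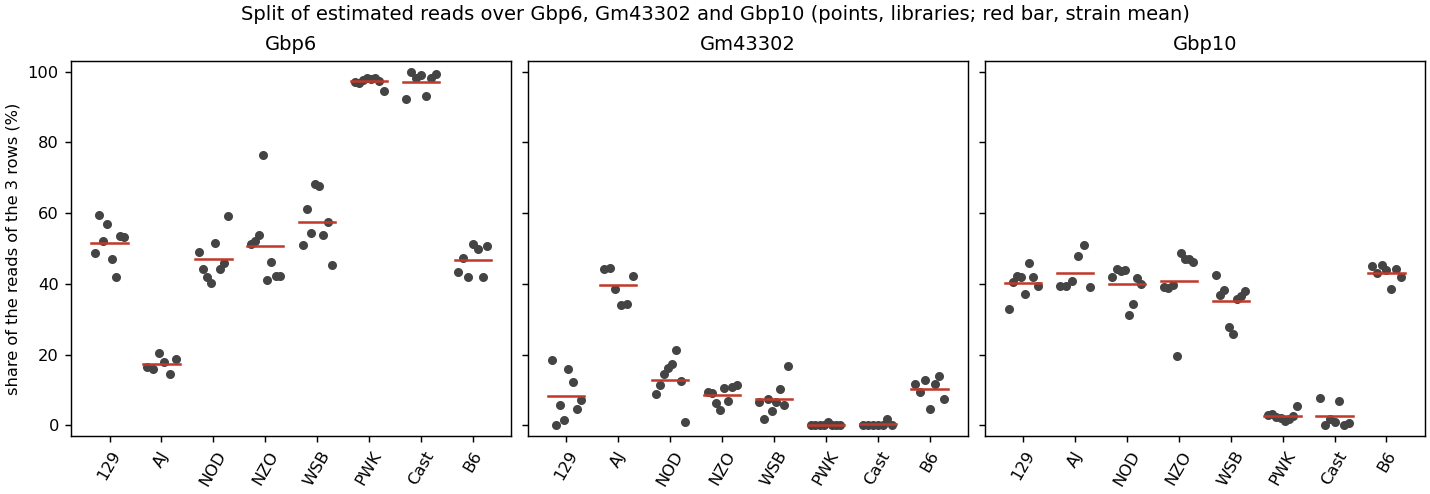
Share in percent of the estimated reads of Gbp6, Gm43302 and Gbp10 that each row took in each library, by strain, with a red bar at the strain mean. Gm43302 takes 34.1% to 44.5% in AJ, and Gbp6 takes over 92% in PWK and Cast.

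Counted strain by strain, Cast and WSB had all 8 rows lower than B6 and none higher. The background was 28.9% lower and 28.2% higher of all tested genes in Cast, and 23.3% lower and 20.9% higher in WSB. In strain-129, 7 of 8 rows were lower, all but Gbp7 (background 12.9% lower, 9.58% higher). In NOD, 6 were lower, all but Gbp7 and Gm43302 (13% lower, 11.4% higher), and in PWK 6, all but Gbp3 and Gbp9 (23% lower, 20.1% higher). In AJ 1 row, Gm43302, was higher and none lower (10.3% lower, 8.13% higher), though Gbp6 had an unadjusted p of 0.0205. In NZO none of 8 was called in either direction (10.4% lower, 11.5% higher), with an adjusted p of 0.387 or more for each, 0 at an unadjusted p under 0.05 and 0 by DESeq2. The median log2 fold change of the 8 rows was -2.87 in Cast, -2.08 in WSB, -1.44 in strain-129, -1.14 in NOD, -1.03 in PWK, -0.34 in AJ and 0.22 in NZO, while the median over all tested genes lay between -0.02 and 0.02 in each strain. All 7 comparisons share the B6 libraries.

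**Figure D4:**
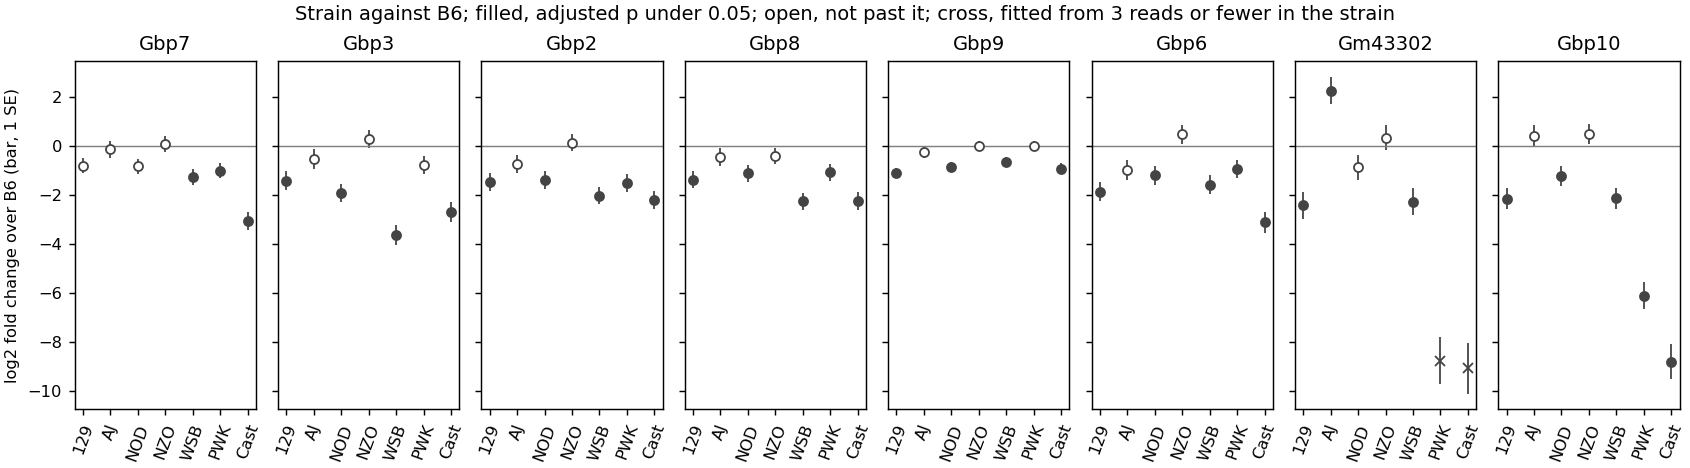
Log2 fold change over B6 with 1 SE for the 8 rows in the 7 other strains, filled where the edgeR adjusted p was under 0.05 and open where not; crosses mark Gm43302 in PWK and Cast, fitted from 3 and 2 reads. Cast, WSB, strain-129 and NOD lie below 0 for every row, but only Cast and WSB have every row past the threshold, and NZO is open throughout.

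Per kb of exon, the level of Gbp10 was 7.75 CPM per kb in B6, above Gbp6 (5.39), Gbp7 (5.17), Gbp2 (4.85) and Gbp3 (4.72), with Gbp9 at 2.13, Gm43302 at 1.66 and Gbp8 at 1.44. In Cast the order was turned: Gbp9 was at 1.13 CPM per kb and Gbp2 at 1.05, above Gbp3 (0.735), Gbp6 (0.623) and Gbp7 (0.62), while Gbp8 was at 0.305, Gbp10 at 0.0149 and Gm43302 at 0.00253. In AJ, Gm43302 stood at 8.07 CPM per kb, second to Gbp10 at 10.5. Differences in level between rows were not tested.

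Within strains, members ran higher in libraries with high Xist. In a model of strain plus log2 Xist CPM, the slope was positive and called for all 8 rows, against 16.6% of all tested genes with a called positive slope; that test was chosen after the data had been seen. The call of Gbp8 was lost in 30 of the 60 fits without 1 library (adjusted p up to 0.0793), that of Gm43302 under DESeq2 (adjusted p = 0.054), and Gm43302 had a positive slope in 5 of 8 strains, against 7 of 8 for each other row. Among the negative slopes of Gm43302, those in PWK and Cast rest on 3 and 2 reads. Slopes in log2 units per doubling of Xist were 0.116 ± 0.018 for Gbp10 (SE, edgeR adjusted p = 1.23e-06), 0.097 ± 0.028 for Gm43302, 0.096 ± 0.016 for Gbp3, 0.086 ± 0.013 for Gbp7 (adjusted p = 3.71e-07), 0.077 ± 0.018 for Gbp6, 0.062 ± 0.018 for Gbp2, 0.044 ± 0.017 for Gbp8 (adjusted p = 0.0438) and 0.033 ± 0.011 for Gbp9. The median Xist levels of the high and low libraries lay 9.30 log2 units apart. In NOD, Gbp3 was at 5.03 to 6.77 CPM in the 4 libraries with Xist over 500 CPM, against 1.49 to 2.51 CPM in the 4 with Xist under 10 CPM. In strain-129 the ranges were 8.63 to 10.9 CPM in the 4 high libraries and 2.16 to 2.46 CPM in the 4 low ones. Gbp7 was free of overlap between the high and low libraries in 5 of 8 strains and Gbp3 in 4, with 3 or 4 libraries on each side in those strains. How often other genes were so was not counted. The slope differed between strains for 5 of the 8 rows, Gbp2, Gbp3, Gbp6, Gbp7 and Gbp9, against 19.5% of all tested genes (edgeR interaction test, adjusted p of 0.0116 to 0.0303). In Cast the slope was negative for 7 of the rows, all but Gbp8, though Gbp10 and Gm43302 rest on 14 and 2 reads there. Gbp9 was at 1.96 to 5.43 CPM in the 3 high libraries of Cast and at 5.18 to 9.70 CPM in its 4 low ones. Cast 5, a low library, held the highest Cast level of Gbp2, Gbp3, Gbp6, Gbp7 and Gbp9. The Cast slopes were not fitted without it. The summed Kupffer cell and macrophage markers were also higher, without overlap, in the libraries with high Xist in 5 of 8 strains: 300 to 443 CPM against 185 to 221 CPM in NOD, and 271 to 427 against 188 to 241 CPM in strain-129, with AJ, PWK and B6 alike. The hepatocyte sum was so in 4 strains, and those of the other marker lists in 0 or 1. The T and NK cell sum was lower without overlap in the high libraries of WSB, at 1.77 to 2.23 against 8.05 to 10.4 CPM. The B cell sum was lower without overlap in those of B6, at 13.1 to 21.2 against 21.7 to 38.6 CPM. In WSB, Cast and NZO the macrophage sums overlapped, and the part of these cells in the slopes was not tested. Strain and Xist together accounted for 85.5% of the variance of log2 CPM of Gbp3, up from 74.7% for strain alone, and for 82.8% of Gbp7, up from 68.1%. With Xist in the model all 36 differences of members from B6 that had been called were still called.

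Members varied together within strains, also across the 2 chromosomes. After subtracting strain means, Pearson's r of log2 CPM over 60 libraries had a median of 0.57 over the 13 pairs of rows on the same chromosome (0.36 to 0.90) and 0.67 over the 15 pairs on different ones (0.28 to 0.86). Gbp3 and Gbp7 were at 0.90, Gbp2 and Gbp3 at 0.89, Gbp3 and Gbp6 at 0.86, and Gbp2 and Gm43302 at 0.28. These libraries share strain, Xist level and cell makeup, so the values describe them only. The pairs on the same chromosome include those among Gbp6, Gm43302 and Gbp10, whose reads are hard to tell apart. Gm43302 was also at 0 in 7 of 8 PWK and 6 of 7 Cast libraries. No background over pairs of other genes was taken. Irf1, an interferon-induced transcription factor, ran with the rows at r of 0.37 (Gm43302) to 0.62 (Gbp8) within strains.

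Outside the 8 rows themselves, the genes most like each row were sought among the 12558 genes whose mean reached 1 CPM; some member pairs given above had a higher r than any gene named here. Over 60 libraries less their strain means, they were Gbp5 (r = 0.848), Uba7 (0.836) and Tapbp (0.83) for Gbp2, and Uba7 (0.904), Tapbp (0.869) and Zbp1 (0.852) for Gbp3. For Gbp7 they were Zbp1 (0.859), Uba7 (0.853) and Samd9l (0.851), for Gbp6 they included Xaf1 (0.858) and Cmpk2 (0.807), and for Gbp9 they included Parp14 (0.817) and Lgals3bp (0.805). For Gbp8 they were H2-DMa (0.818), H2-Aa (0.81) and H2-Ab1 (0.805), which encode parts of the class II antigen presentation machinery. For Gbp10 they were Hao2 (0.771), Nqo1 (0.74) and Igtp (0.73), and for Gm43302 Ifit1 (0.549), Ifit3b (0.528) and Parp10 (0.527). Over the 8 strain means, where a high r is easily reached, they were Fgl2 (0.989), Slc15a3 (0.987) and Samd9l (0.987) for Gbp2, Macf1 (0.984), Fam78a (0.979) and Orai2 (0.978) for Gbp3, and Vav3 (0.986), Uba7 (0.986) and Slc16a7 (0.981) for Gbp7. They were Ncoa7 (0.987), Aim2 (0.985) and Cmpk2 (0.978) for Gbp6, Tbc1d14 (0.993), Cyp2a22 (0.987) and Trpm4 (0.972) for Gm43302, and 9930111J21Rik1 (0.988), Pmf1 (0.987) and Gdap10 (0.987) for Gbp10. They were Gimap3 (0.987), Lilrb4a (0.976) and Fchsd1 (0.975) for Gbp8 and Irgm2 (0.967), Irf9 (0.965) and Chp2 (0.958) for Gbp9. Uba7 encodes the enzyme that activates ISG15, Tapbp tapasin, Zbp1 a nucleic acid sensor and Aim2 a DNA sensor of the inflammasome.

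The other Gbp genes of the 2 clusters did not all follow the members. Gbp11, next to Gbp6 and annotated as a polymorphic pseudogene, was at 59.4 ± 19.7 CPM in AJ and 63.1 ± 20.5 in WSB, against 4.77 ± 2.46 CPM in B6, with log2 fold changes of 3.63 ± 0.50 and 3.72 ± 0.49 (adjusted p = 9.55e-08 and 1.08e-08). WSB thus had Gbp11 higher while all 8 member rows were lower. Gbp2b, between Gbp3 and Gbp2, was at 0.333 CPM in WSB, 0.257 in PWK and 0.269 in Cast, against 5.34 CPM in B6, with log2 fold changes of -3.98 ± 0.51, -4.32 ± 0.53 and -4.33 ± 0.56. Gbp4, whose first exon overlaps those of Gbp8 and Gbp9, was higher in AJ (1.13 ± 0.30, adjusted p = 0.00503) and lower in WSB (-2.43 ± 0.30), Cast, strain-129 and NOD. Gbp5, a partner of the NLRP3 inflammasome, was lower in 5 strains, from -1.06 ± 0.33 in PWK to -1.71 ± 0.35 in Cast.

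Within 250 kb of the members, 10 genes that are not Gbp genes were tested. Abcg3, beside Gbp8, was lowest in Cast at 0.296 CPM, against 5.84 CPM in B6, the highest mean, a 19.7-fold range of strain means. Gm43802, a transcript inside the span of Gbp7, had an 11.7-fold range and was highest in PWK, at 0.618 CPM, while Gm15540 had an 8.35-fold range. Zfp951 had a 6.41-fold range and was highest in WSB at 4.19 CPM, and Ccbl2, beside Gbp2, had a 4.43-fold range and was highest in WSB at 371 CPM. Lrrc8b, Gtf2b, Pdlim5, Lrrc8c and Pkn2 had ranges of 2.50, 1.77, 1.63, 1.43 and 1.27-fold. All 10 were called among the strains, as most genes were.

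Genes of the interferon-gamma pathway were counted against B6 in the same way, beside the background given for each strain. Of 14 tested signalling genes, 11 were lower and 1 higher in Cast, 9 and 2 in WSB, 8 and 0 in NOD, 6 and 0 in strain-129, 5 and 3 in PWK, 1 and 1 in AJ, and 1 and 0 in NZO. Ifngr2, a chain of the interferon-gamma receptor, was lower by -1.38 ± 0.13 in Cast and -0.85 ± 0.13 in PWK, and Nlrc5, the activator of class I genes, by -2.04 ± 0.20 in Cast and -1.17 ± 0.19 in strain-129. Of 16 tested target genes, 12 were lower in Cast, 11 in PWK, 10 each in strain-129 and NOD, 9 in WSB, 2 in AJ and 1 in NZO, with 2 higher in PWK and 0 or 1 elsewhere. Among the targets with the smallest F-test p, Cd274 was at 0.414 CPM in Cast, against 5.48 CPM in B6. Serpina3g was higher in Cast (0.80 ± 0.28) and lower in WSB (-2.68 ± 0.30), PWK and NOD. Xaf1 was higher in PWK (1.51 ± 0.28) and lower in NOD (-1.24 ± 0.28), WSB (-1.72 ± 0.29) and Cast (-0.76 ± 0.29).

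Among the other interferon-induced GTPases, Iigp1, Mx2 and Gvin1 were near 0 in some strains. Iigp1, an immunity-related GTPase of parasite vacuoles, was at 0.426 ± 0.400 CPM in Cast, against 288 ± 76.8 CPM in B6 (-9.38 ± 0.41, adjusted p = 5.04e-27). Mx2, an antiviral GTPase, was at 0.0193 ± 0.0233 CPM in NZO, 63.2 ± 20.1 in PWK and 73.9 ± 98.7 in Cast, against 4.73 ± 1.38 CPM in B6. The Cast mean rests on Cast 5 at 290 CPM: without it the other 6 averaged 37.9 ± 27.9 CPM, still higher than B6 (log2 fold change 3 ± 0.28, adjusted p = 3.22e-13), in a fit added after the data had been seen. Gvin1, a very large GTPase, was lower than in B6 in all 7 strains, at 0 to 5.48 CPM, against 46.1 ± 25.1 CPM in B6. Of the 10 tested genes of this list, 8 were lower in strain-129 and WSB, 7 in Cast, 5 in NOD, 3 in PWK, 2 in NZO and 1 in AJ, with 3 higher in PWK, 2 in NZO and 1 in Cast. Of 10 tested inflammasome partners, 9 were lower in Cast, 8 in strain-129 and WSB, 5 in NOD and PWK, 3 in AJ and 1 in NZO, and none was higher. Naip2, a sensor of bacterial secretion, was at 0.184 ± 0.0956 CPM in PWK, against 11 ± 2.34 CPM in B6, and Casp1 was lower in strain-129, NOD, WSB, PWK and Cast. Il1b was lower by -4.08 ± 0.43 in Cast.

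Markers of Kupffer cells, the resident macrophages of the liver, and of other macrophages were counted against B6. Most were lower in every strain in which members were called lower, and in AJ. Of 12 markers, all were lower in WSB, 11 in NOD, PWK and Cast, 10 in strain-129, 8 in AJ and 0 in NZO, and none was higher. Their summed level was 163 to 384 CPM in WSB, 112 to 291 in Cast, 185 to 443 in NOD, 188 to 427 in strain-129, 202 to 487 in PWK, 271 to 576 in AJ and 279 to 1130 in NZO, against 366 to 939 CPM in B6. In AJ 8 of 12 macrophage markers were lower and no member row was called lower. Gbp6 was called lower there with Xist in the model (log2 fold change -1.05, edgeR adjusted p = 0.0266). The summed level of the 8 Gbp rows averaged 175 ± 79.3 CPM in NZO, 149 ± 81.7 in AJ, 64.6 ± 33.8 in NOD, 58.8 ± 22.0 in PWK, 51.2 ± 24.5 in strain-129, 43.3 ± 10.4 in WSB and 19.2 ± 7.21 in Cast, against 142 ± 54.9 CPM in B6. Pearson's r between the log2 sums was 0.88 over the 8 strain means and 0.56 over the 60 libraries within strains. For T and NK cell markers the same values were 0.70 and 0.21, for B cell markers 0.66 and 0.12, for endothelial markers 0.28 and 0.23, for hepatocyte markers 0.40 and 0.22, and for neutrophil markers 0.30 and 0.12. The 14 T and NK cell markers summed to 0.492 to 16.2 CPM in any library. Of them 13 were lower in Cast, 12 in WSB, 11 in strain-129, 5 in PWK, 4 in AJ, 2 in NOD and 0 in NZO. In WSB 1 was higher, and none was in the other strains. Of 8 B cell markers, 8 were lower in WSB and Cast, 6 in AJ, 5 in strain-129 and PWK, 4 in NOD and 2 in NZO, and none was higher. Hepatocyte and endothelial markers were called in both directions, and no neutrophil marker was called lower. Of the defining macrophage markers, Csf1r was at 21 ± 4.29 CPM in Cast, against 99.1 ± 32.1 CPM in B6, and Adgre1 at 5.50 ± 1.49 CPM, against 37.3 ± 13 CPM. Folr2 was near 0 in WSB (0.0891 ± 0.0755 CPM) and Cast (0.213 ± 0.124 CPM). It was at 0.957 ± 0.332 CPM in PWK, against 12.1 ± 4.07 CPM in B6. No macrophage marker was at 0 in all libraries of a strain. The part of cell makeup in the strain differences of the members was not tested.

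**Figure D5:**
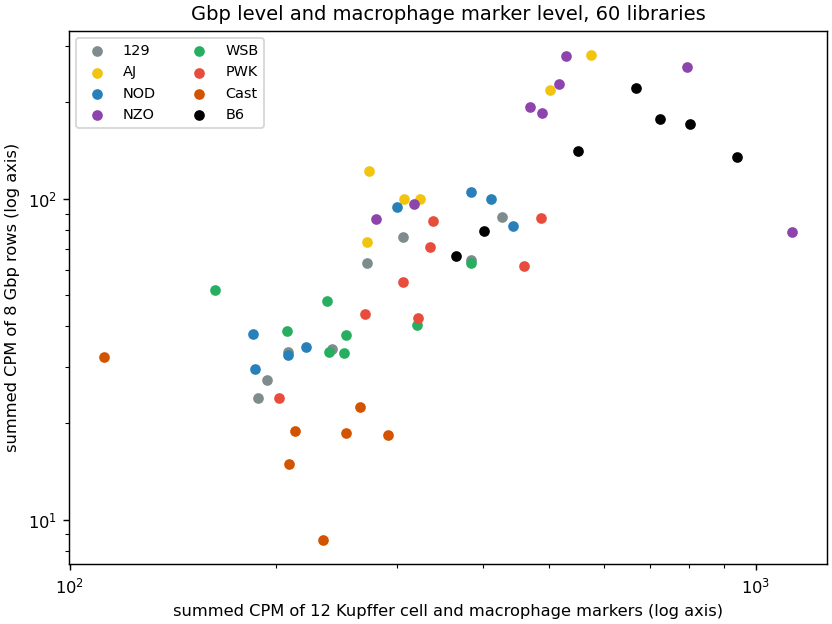
Summed CPM of the 8 Gbp rows against summed CPM of 12 Kupffer cell and macrophage markers in each of the 60 libraries, both on log axes, coloured by strain. Cast libraries lie lowest for the Gbp sum, at 8.66 to 32.2 CPM, and NZO 8 is the point at 1130 CPM of markers and 78.6 CPM of Gbp rows.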

How the data were processed

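Liver poly(A) RNA was sequenced in the founder strains. The authors deposited estimated counts per gene, not normalised, of which 21% are not whole numbers, as the values show. They also deposited a matrix of variance-stabilised values on the log2 scale, and gene positions in Mb; per the submitters' processing notes the build was GRCm38 and DESeq2 was used, while no source used here names the aligner or counter. Of 61 samples, 1 of B6 had no column that matched its label, and 1 column of the table matched no sample and was not used, which left 60 libraries. Counts were rounded and fitted in R 4.3.3 with edgeR 4.0.16 (TMM, filterByExpr by strain, quasi-likelihood F test, Benjamini-Hochberg over 16165 genes, threshold 0.05), 1 coefficient per strain; SE is the absolute log2 fold change over the square root of F. CPM use TMM-scaled library sizes, log2 CPM a prior count of 2. Totals of 20 to 69.2 M reads set the precision. The design had assumed whole counts. Alternatives were DESeq2 1.42.0, limma 3.58.1 on the deposited log2 values, RLE factors, 2 filters, unrounded counts, Rn18s-rs5 left out, Xist as a term, a replicate block, the 3 overlapping rows summed and each library left out. Members and lists were chosen with earlier results of these data known. Genes named were the 7 members, the other Gbp genes, the neighbours within 250 kb, the 3 genes most like each row by either r among those of at least 1 CPM, and the 3 of each list with the smallest F-test p, of which only some are printed; Irf1 was added as a regulator after the values were seen. Exons and transcripts come from GENCODE M21, promoters from RefSeq. The code was checked on simulated counts. A gene that the naming rule selects is not reported here.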

Additional observations from a re-analysis of the deposited data

Results flagged for a closer look

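Of 64 groups of libraries (8 rows in 8 strains), 5 held a library far from the rest; by chance about 1 in 20 groups would. Gm43302 was at 5.21 CPM in strain-129 1, against 0 to 1.66 CPM in the other strain-129 libraries. It was at 0.11 CPM in PWK 5 and 0.0765 CPM in Cast 7, with every other library of those strains at 0; these values are 3 and 2 reads, and beside zeros any read would stand apart, so they say nothing against the chance rate. Gbp10 was at 0.181 CPM in Cast 6, against 0 to 0.0666 CPM in the others. Gbp8 was at 9.79 CPM in NZO 5, against 1.59 to 4.15 CPM, a library in which Gbp2 was at 26.0 CPM, against 5.19 to 16.5 CPM in the others.

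The slope of a member on the log2 CPM of Xist differed between strains for 5 of the 8 rows in a test of the interaction (edgeR, adjusted over all genes), against 19.5% of all tested genes. The adjusted p was 0.0116 for Gbp3, 0.0211 for Gbp6, 0.0243 for Gbp7, 0.0252 for Gbp2 and 0.0303 for Gbp9. For Gbp3 the slope within strains ran from 0.221 in strain-129 and 0.173 in NOD to -0.045 in Cast, and for Gbp6 from 0.184 in NOD to -0.111 in Cast. For Gbp9 the slope in Cast was -0.097, and positive in the other 7 strains. It was not called for Gbp8, Gbp10 and Gm43302. Cast has 3 libraries with high Xist and 4 with low.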

How the results depend on the processing

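All 8 rows were called among the strains under every alternative run (6 rows when the 3 overlapping ones were summed). Member calls over the 28 pairs numbered 137, 134 to 142 with 1 library left out, and 150 with Xist as a term; of the 137, 133 were shared by limma on the log2 values and 135 by DESeq2. Against B6 all 36 called differences were kept in direction and call under RLE factors, both filters, unrounded counts, Rn18s-rs5 left out, limma, DESeq2, Xist as a term and the replicate block, and 34 in all 60 fits without 1 library, with no sign turned; the exceptions, Gbp10 in NOD and Gbp6 in PWK, are given above. Members called against B6 were 7 to 8 in strain-129, 1 to 2 in AJ, 5 to 7 in NOD, 0 in NZO, 8 in WSB, 5 to 6 in PWK and 8 in Cast with 1 library left out. The count in AJ was 2 with Xist as a term or the replicate block, which added Gbp6, also 2 without AJ 4 or B6 7, and 0 with the 3 rows summed. Positive slopes on Xist were called for 7 to 8 rows without 1 library, Gbp8 missing in 30 of those fits, and for 7 by DESeq2, without Gm43302.

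Equal replicate numbers were not taken to pair libraries. For pairs with equal numbers, the r of deviations from strain means was above 0.1 in 131 of 181 (-0.43 to 0.53). Its median was 0.2, against -0.07 over 1392 pairs with other numbers. Of 60 libraries, 7 correlated best with a library of their own number. The number also tracked Xist. Xist was over 500 CPM in 28 of 30 libraries numbered 1 to 4 and in 3 of 30 numbered 5 to 9. These values therefore cannot tell a pairing by number from a shared Xist level. The replicate block gave 145 member calls over the pairs. Differences near 0 that were not called changed sign: Gbp9 in NZO was 0.00 with at least 1 CPM in 6 libraries, -0.01 with limma and -0.03 with the replicate block. With 1 library left out, Gbp9 ran from -0.08 to 0.10 in NZO and from -0.05 to 0.12 in PWK, Gbp7 from -0.31 to 0.02 in AJ and from -0.03 to 0.24 in NZO, and Gbp2 from -0.07 to 0.29 in NZO. The alternatives for the slope on Xist, and the inclusion of Gm43302 in the sum of Gbp6 and Gbp10, were chosen after seeing the data. In Cast the values of Gbp10 and Gm43302 rest on 14 and 2 reads.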
